A study of Homo sapiens with 8 samples.

Results

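The genes described here encode AP-1 transcription factors and other immediate early products: FOS, FOSB, FOSL1, FOSL2, JUN, JUNB, JUND, EGR1, ATF3 and IER3. They were chosen by name and not by their measured values, though earlier results of these data were known. They are 10 of the 58051 genes of the count table. RNA came from PC3, an established human prostate cancer cell line. There were 4 samples of PC3 cells transduced with a lentiviral control hairpin (shScramble) and 4 of PC3 cells transduced with the sh2 hairpin against IER5L (shIER5L). IER5L is a gene of the immediate early response family, whose products are described as regulators of the phosphatase PP2A. According to the study's methods, all cells had been selected with puromycin, and the samples were plates of each cell line seeded at high confluency. The silenced cells carried 1 hairpin, so effects of that hairpin on other transcripts and of IER5L itself cannot be told apart. No source used here says whether the plates came from separate transductions, so the p-values measure the spread between these samples. Neither the labels nor the methods name a stimulus or a serum withdrawal for these samples, and the values are levels at a single harvest.

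AP-1 is a dimer of basic leucine zipper (bZIP) proteins. FOS family proteins (FOS, FOSB, FOSL1, FOSL2) need a JUN family partner (JUN, JUNB, JUND), whereas JUN proteins can also pair with each other and with ATF proteins such as ATF3. Immediate early genes are switched on within minutes of a growth factor or stress signal, without new protein synthesis, and their transcripts are usually short-lived. MAP kinases drive this through ELK factors with SRF on FOS and EGR1, and through phosphorylation of JUN and ATF2 on JUN. PP2A removes phosphates from many proteins of these routes.

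Such signals reach these genes through short sites in their promoters. RefSeq promoters of GRCh38.p14, from 250 bases before to 50 after each annotated start, were matched by symbol for 8 of the 10 genes. FOSL1 and IER3 had no entry. The promoters were searched on both strands for the AP-1 site (TGACTCA or TGAGTCA), the cAMP response element or CRE (TGACGTCA), its core TGACGT, the variant TGACATCA known from JUN, and the CArG box bound by SRF. Matches to these motifs may overlap, as the core lies within the CRE. The 5 sequences below are shown because they hold the rarer of these motifs. They are written 5′ to 3′ along the gene, with the motif in capitals:
EGR1, CArG box, chr5:138465366-138465391, plus strand: cggtcctgCCATATTAGGgcttcctg
JUN, TGACATCA, chr1:58784098-58784123, minus strand: gccttggggTGACATCAtgggctatt
ATF3, TGACATCA, chr1:212565275-212565300, plus strand: cctatgataTGACATCAtatggccac
FOSL2, AP-1 site, chr2:28392852-28392878, plus strand: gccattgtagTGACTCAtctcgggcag
JUND, CRE, chr19:18281806-18281831, minus strand: ccgcccccaTGACGTCAacccacaag

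Of 35116 RefSeq promoters of this length, 4.95% held the AP-1 site, 1.85% the CRE, 2.61% TGACATCA, 7.98% the core TGACGT and 1.29% a CArG box. EGR1 had a CArG box at positions -105 and -83 from its start, and the core TGACGT lay at -64 in FOS, -60 in FOSB and -66 in FOSL2. On the opposite strand the core also lay at -136 and -67 in EGR1 and at -87 in JUND. The CRE of JUND at -200 holds the core on each strand. A match describes the letters of the window and does not show that a factor was bound. Sequence outside the window was not searched, so a motif not found for a gene may lie beyond it.

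The libraries held between 21512128 and 24662190 reads counted on genes, and 16959 genes had enough counts to be tested. Each read of a pair was counted, so a fragment could add more than 1 to a count. PC3 markers KRT8, KRT18, EPCAM, CD44, VIM and CAV1 were expressed. KLK3 and KLK2, which PC3 is known to lack, had 0 counts in every sample. Of the markers of leukocytes, endothelium and fibroblasts, PECAM1 had between 174 and 245 counts, and none of the others exceeded 29.

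IER5L (ENSG00000188483), the targeted gene, was weakly expressed and lower in shIER5L cells. Its level was 3.91, 6.51, 5.62 and 3.23 CPM (counts of a gene relative to its TMM-adjusted library size) in the control samples (replicates 1 to 4), and 2.73, 3.03, 2.04 and 1.33 CPM in shIER5L replicates 1 to 4. The groups did not overlap, and edgeR's quasi-likelihood test gave an adjusted p of 0.0212. This call was lost without shScramble replicate 2 (adjusted p = 0.0937), shScramble replicate 3 (0.0780) or shIER5L replicate 3 (0.0891). Antisense genes overlap IER5L, and reads were counted without strand.

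Levels per length set the members apart by several orders of magnitude. In RPKM (CPM per kilobase of counted exon), JUN was highest, with 26.9 ± 2.60 (SD, n = 4) in shScramble and 27.6 ± 4.23 (SD, n = 4) in shIER5L cells. It stood above 87.9% of the tested genes. JUNB followed with a mean of 7.83 RPKM over the 8 samples, FOSL1 with 6.46, JUND with 3.60, FOSL2 with 2.09 and ATF3 with 0.924. FOS was far lower at 0.215 RPKM, above 6.26% of the tested genes. IER3 had 0.169 RPKM, FOSB 0.0264 and EGR1 0.00536. Neighbours in this order did not overlap between samples of either group, except JUNB with FOSL1, FOS with IER3 and IER3 with FOSB, and, in shScramble only, FOSB with EGR1. The order rests on counted exon length, which was 7157 bases for FOSL2, 1820 for JUNB and 1887 for FOSL1. By CPM, without division by length, FOSL2 stood above 51.8% of the tested genes, JUNB above 51.1% and FOSL1 above 49%.

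**Figure D1:**
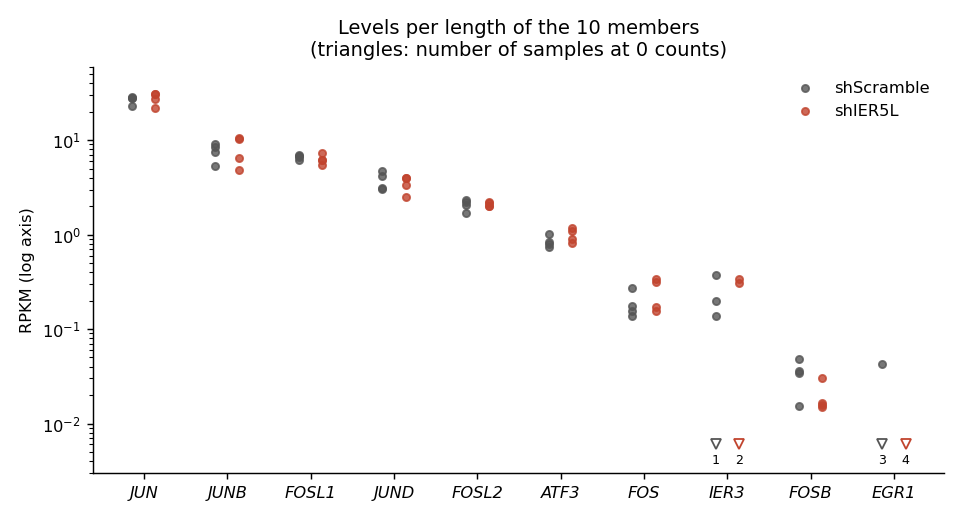
Levels of the 10 genes in RPKM on a log axis, with 1 point per sample (grey, shScramble; red, shIER5L) and triangles that give the number of samples at 0 counts. JUN lies at the top with a mean of 27.2 RPKM, and IER3, FOSB and EGR1 lie at or near 0.

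By RPKM, the AP-1 transcripts of these cells were mostly JUN. Of the summed RPKM of the FOS and JUN family genes, JUN made up between 55.7% and 60.9% in single samples, with a mean of 57.1% ± 1.88 (SD, n = 4) in shScramble and 57.9% ± 2.19 (SD, n = 4) in shIER5L cells. The JUN family as a whole held 77.3% to 83.7%. Within the FOS family, FOSL1 and FOSL2, which lack the strong transactivation domain of FOS, made up between 96.3% and 98.1%. These shares are of transcripts scaled by counted exon length, and protein was not measured in these files. JUN transcripts are 56.1% GC, against 64.9% for JUNB and 69.9% for JUND. The part of GC content in the shares was not tested.

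None of the 10 genes was called changed in shIER5L cells. Of the 7 that had enough counts, 0 had an adjusted p under 0.05 by edgeR's quasi-likelihood test, against 3.93% of all genes tested. None had an unadjusted p under 0.05 (16.5% of all genes tested), and in none did the samples of the groups separate (10.9%). None was called by limma voom or by DESeq2, which gave no adjusted p for FOS. The lowest adjusted p of any of the 7 over all alternatives was 0.382. The log2 fold changes ran from -0.12 to 0.38, with 5 higher and 2 lower in shIER5L cells. Their median was 0.03, beside 0.00 over all tested genes. FOSB, EGR1 and IER3 were below the filter on low counts. In bulk RNA, fewer cells with a transcript and fewer transcripts per cell cannot be told apart.

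**Figure D2:**
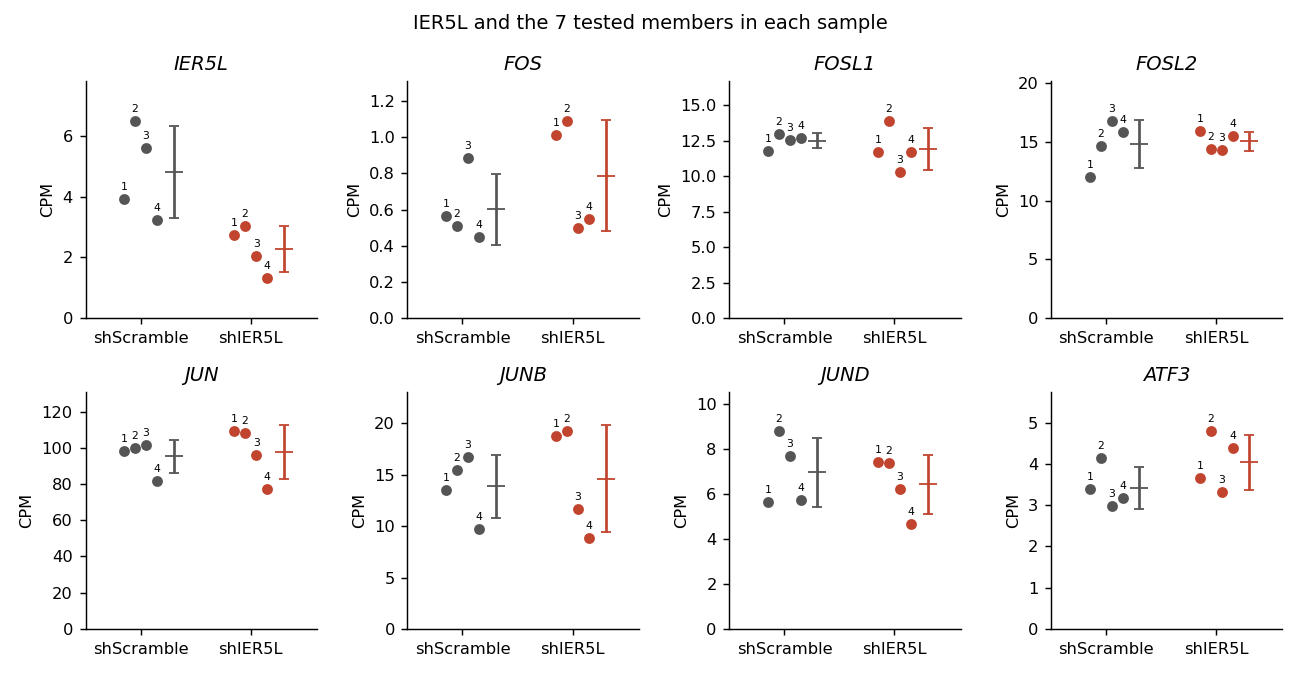
CPM of IER5L and of the 7 tested members in each sample, numbered by replicate, with the mean and SD of each group (n = 4) as a bar to the right. The groups are apart for IER5L and overlap for every member.

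Of the FOS family, FOS encodes the classical partner of JUN, induced briefly by serum and stress. FOS (ENSG00000170345; chr14:75278774-75282230, plus strand) had 12, 12, 22 and 10 counts in order of replicate in shScramble cells, against 23, 26, 12 and 12 in shIER5L cells. The level was 0.601 ± 0.194 CPM (SD, n = 4) in shScramble and 0.788 ± 0.308 (SD, n = 4) in shIER5L cells. The shIER5L replicates 1 and 2 were the highest, replicates 3 and 4 lay within the shScramble range, and the groups overlapped. The fold was 1.30 with a 95% interval from 0.767 to 2.21 (edgeR's quasi-likelihood test, adjusted p = 0.675). At this depth neither end of that interval was excluded.

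FOSL1 (ENSG00000175592; chr11:65892049-65900573, minus strand) encodes FRA1, a FOS family protein known for sustained expression in invasive carcinoma cells. Its level was 11.7, 12.98, 12.5 and 12.7 CPM in order of replicate in shScramble cells, against 11.7, 13.9, 10.3 and 11.7 CPM in shIER5L cells. The shIER5L samples held both the highest and the lowest value. The fold was 0.953 (95% interval 0.820 to 1.11, adjusted p = 0.814 by edgeR's quasi-likelihood test).

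FOSL2 (ENSG00000075426; chr2:28392448-28417312, plus strand) encodes FRA2, another FOS family protein. It had 12.02, 14.6, 16.8 and 15.8 CPM in order of replicate in shScramble cells, against 16.0, 14.4, 14.3 and 15.5 CPM in shIER5L cells. All 4 shIER5L values lay within the shScramble range. The fold was 1.01 (95% interval 0.870 to 1.18, adjusted p = 0.959 by edgeR's quasi-likelihood test).

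FOSB (ENSG00000125740; chr19:45467995-45475179, plus strand), a FOS relative known for its stable truncated form in neurons, was close to undetected. It had 4, 2, 5 and 6 counts in shScramble against 2, 2, 4 and 2 in shIER5L cells (replicates 1 to 4). The ranges overlapped, and the gene was not tested in the main comparison. Without a filter on low counts the adjusted p was 0.742 (edgeR's quasi-likelihood test).

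In the JUN family, JUN (ENSG00000177606; chr1:58780788-58784327, minus strand) encodes c-JUN, the main target of the JNK kinases among these proteins. It had 98.0, 99.9, 101 and 81.6 CPM in order of replicate in shScramble cells, against 109, 108, 96.0 and 77.0 CPM in shIER5L cells. Replicate 4 was the lowest in each group. The fold was 1.02 (95% interval 0.892 to 1.18, adjusted p = 0.908 by edgeR's quasi-likelihood test).

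JUNB (ENSG00000171223; chr19:12791496-12793315, plus strand) encodes a JUN protein that restrains c-JUN in many settings. It had 13.5, 15.4, 16.7 and 9.77 CPM in order of replicate in shScramble cells, against 18.7, 19.2, 11.7 and 8.82 CPM in shIER5L cells. The shIER5L samples fell into a high and a low pair on either side of the shScramble mean. The fold was 1.05 with a wide 95% interval from 0.775 to 1.43 (adjusted p = 0.911 by edgeR's quasi-likelihood test). HOOK2 overlaps JUNB on the opposite strand, and reads of the overlap were not told apart by strand.

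JUND (ENSG00000130522; chr19:18279760-18281622, minus strand), the JUN gene that resting cells also express, had 5.66, 8.79, 7.71 and 5.74 CPM in shScramble against 7.41, 7.39, 6.24 and 4.66 CPM in shIER5L cells (replicates 1 to 4). The groups overlapped, with the lowest value in shIER5L replicate 4. The fold was 0.920 (95% interval 0.717 to 1.18, adjusted p = 0.801 by edgeR's quasi-likelihood test). The signs of JUN, JUNB, JUND and FOSL2 turned when single samples were left out.

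ATF3 (ENSG00000162772; chr1:212565334-212620777, plus strand) encodes a stress-induced bZIP factor that represses or activates according to its partner. It had 3.39, 4.14, 2.97 and 3.18 CPM in order of replicate in shScramble cells, against 3.66, 4.79, 3.33 and 4.39 CPM in shIER5L cells. Its groups overlapped, with means of 3.42 ± 0.511 (SD, n = 4) and 4.04 ± 0.666 CPM (SD, n = 4). The fold was 1.18 (95% interval 0.930 to 1.499, adjusted p = 0.516 by edgeR's quasi-likelihood test), the lowest p among the members.

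EGR1 (ENSG00000120738; chr5:138465490-138469315, plus strand) encodes a zinc finger factor that is among the earliest genes induced by serum. It was at 0 counts in 7 of the 8 samples and had 3 counts in shScramble replicate 4. If counts were independent, a count of 0 would allow up to 3 counts, or between 0.120 and 0.141 CPM in these libraries. Each read of a pair was counted, so the level allowed by a count of 0 can be higher. Of the genes nearest to it, REEP2 had between 2 and 7 counts, ETF1 between 7333 and 8467 counts and HSPA9 between 22893 and 25338. EGR1 was not tested in the main comparison, and without the filter on low counts its adjusted p was 0.615 (edgeR's quasi-likelihood test).

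IER3 (ENSG00000137331; chr6:30743199-30744554, minus strand), which encodes a stress and survival protein reported to act on ERK signalling through PP2A, had 4, 12, 0 and 6 counts in shScramble against 0, 0, 10 and 10 counts in shIER5L cells (replicates 1 to 4). Samples at 0 occurred in each group. Its neighbours FLOT1 and TUBB had between 1651 and 2112 and between 3694 and 4480 counts. IER3-AS1 overlaps it on the other strand. Without the filter on low counts the adjusted p was 0.964 (edgeR's quasi-likelihood test).

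**Figure D3:**
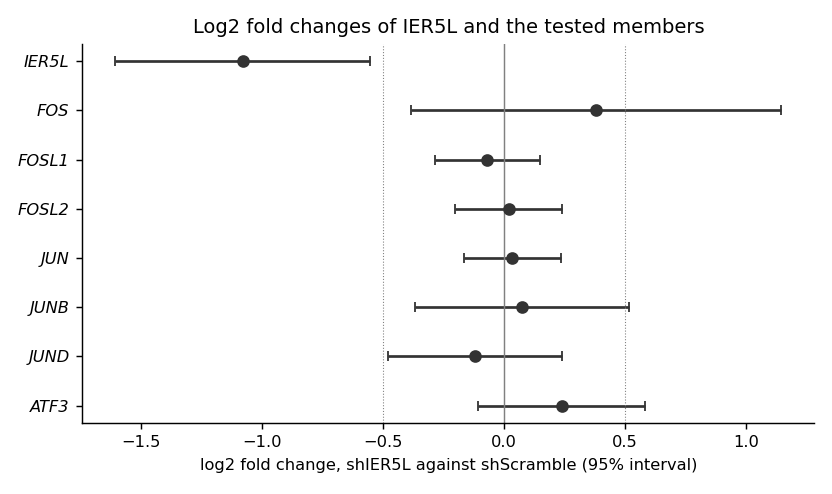
Log2 fold change of shIER5L against shScramble with its 95% interval for IER5L and the 7 tested members. Dotted lines mark 0.5 in either direction. The intervals of FOSL1, FOSL2, JUN and JUND lie between those lines, and those of FOS, JUNB and ATF3 cross the upper one.

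The intervals set how large a change could have been missed. For FOSL1, FOSL2, JUN and JUND they excluded a log2 fold change of 0.5 in either direction, for JUND narrowly, with a lower end of -0.48. For FOS, JUNB and ATF3 they reached 1.14, 0.52 and 0.58, so that a rise of this size was not excluded.

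The deviations of JUNB and JUND shared their sign with a trend of each sample on the GC content of transcripts. Over 14055 genes of at least 1 CPM, the deviation in log2 of CPM plus 0.5 from each gene's mean was set against GC content. It sloped by -0.04, 0.06, 0.09 and -0.025 per 10 percentage points of GC in shScramble replicates 1 to 4. In shIER5L replicates 1 to 4 the slopes were 0.05, 0.07, -0.09 and -0.12. JUND transcripts are 69.9% GC and JUNB transcripts 64.9%, the highest among the members. For JUNB and for JUND, the sign of the deviation from the gene's mean matched the sign of the slope in 8 of 8 samples, which held for 5.49% of 14149 genes of at least 1 CPM. FOS matched in 7 samples, FOSL1 and JUN in 6, ATF3 in 5 and FOSL2 in 4. Slopes of both signs occurred in each condition.

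With the GC trend of each sample removed, the standard error of the log2 fold change fell from 0.21 to 0.12 for JUNB, from 0.17 to 0.11 for JUND and from 0.09 to 0.07 for JUN. The fold changes stayed small, at 0.11, -0.07 and 0.07 on the log2 scale. No member was called by edgeR's quasi-likelihood test, and the lowest adjusted p was 0.382 for ATF3. Levels also fell with GC content across the table: the median of protein-coding genes was 4.82 RPKM up to 40% GC and 0.198 RPKM above 65%. Among tested protein-coding genes these medians were 8.7 and 1.75 RPKM. The median of all protein-coding genes was 0.627 RPKM from 50% to 55% GC and 0.365 RPKM from 55% to 60%. The part of GC content in the low levels of FOS, FOSB, EGR1 and IER3, at 52.8% to 58.5% GC, was not tested.

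**Figure D4:**
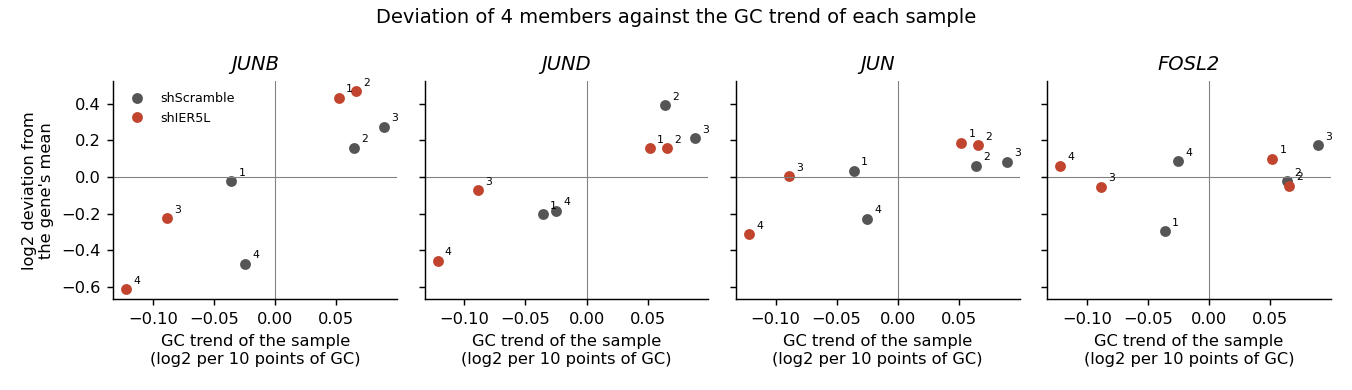
Log2 deviation of JUNB, JUND, JUN and FOSL2 from the mean of the gene (vertical) against the slope of log2 level on GC content in the same sample (horizontal), numbered by replicate. JUNB and JUND share the sign of the slope in 8 of 8 samples, JUN in 6 and FOSL2 in 4.

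Likeness to FOS over the 8 samples was the root mean square difference in log2 of CPM plus 0.5, centred within each condition. Among the 5 genes with a pattern most like FOS were PIK3IP1 (0.0728), ZG16B (0.0807), FBXO41 (0.0818) and PEX16 (0.0836). FOS itself had a root mean square of 0.26 on this scale. The added 0.5 shrinks deviations of FOS, at 0.448 to 1.09 CPM, more than those of PEX16, at a mean of 23.1 CPM. The part of this addition in the likeness was not tested. The 5 genes were the nearest of 14149, and the samples share the same library trends. No such list was made for EGR1, which was at 0 in most samples.

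The wider network was read from lists of genes by role. These lists were chosen with earlier results of these data known, so their shares of called genes are descriptions. Among 25 other bZIP proteins that pair with or resemble AP-1, 21 were tested and 3 were called (14.3%, beside 3.93% of all tested genes), of which 2 rose and 1 fell, against 2.46% and 1.46% of all tested genes. JDP2, which pairs with JUN and represses AP-1 sites, had 3.72, 3.26, 4.58 and 4.39 CPM in shScramble against 7.01, 6.01, 6.41 and 5.16 CPM in shIER5L cells (replicates 1 to 4). The groups did not overlap, and JDP2 rose 1.54-fold (95% interval 1.25 to 1.91, adjusted p = 0.0219 by edgeR's quasi-likelihood test). Its call was lost without shScramble replicate 1 or 2 or shIER5L replicate 1 or 3, with adjusted p from 0.0611 to 0.0904. CREM, a cAMP-responsive activator or repressor, rose from 88.0 ± 1.39 to 104 ± 6.88 CPM (SD, n = 4; adjusted p = 0.0143), a call lost without shScramble replicate 2 or 3 or shIER5L replicate 3 (0.0536 to 0.0599). ATF1, a CREB relative, fell from 52.0 ± 1.74 to 41.6 ± 2.58 CPM (SD, n = 4; adjusted p = 0.00719), and its call held without any single sample. The list had a median log2 fold change of 0.05. Antisense genes overlap JDP2, CREM and, among the genes named below, IER2, EGR3, CCND1 and KRT7, and ADAMTSL4-AS1 overlaps MCL1 on the same strand.

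Among 48 other immediate early genes, 40 were tested and 1 was called (2.5%, beside 3.93% of all tested genes). Of the EGR family, EGR3 and EGR4 had at most 1 count and EGR2 had between 12 and 34, while MYC, with 2220 to 3442 counts, and IER2, with 1315 to 1728, were well measured. The called gene was DUSP4, which encodes a phosphatase that switches off ERK and JNK. It fell from 174 ± 7.48 to 149 ± 3.29 CPM (SD, n = 4; adjusted p = 0.00933), and without shScramble replicate 3 the adjusted p was 0.0511. SPRY2, an inhibitor of receptor tyrosine kinase signalling, and MCL1, a survival protein of the BCL2 family, did not pass, with log2 fold changes of 0.17 and 0.12 (adjusted p = 0.0950 and 0.110). The median of the list was -0.01.

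Of 35 genes described as AP-1 targets, 31 were tested and 6 were called (19.4%, beside 3.93% of all tested genes), 3 in each direction. Of these, 4 also reached 0.5 in log2 fold change in either direction, a rule that 0.79% of all tested genes met. The median standard error of the list was 0.081, against 0.109 over all tested genes. The part of this precision, and of the choice of the list, in the share called was not tested. MMP13, a collagenase, rose 1.52-fold (95% interval 1.27 to 1.81, adjusted p = 0.00939), from 8.71 ± 1.23 to 13.2 ± 1.63 CPM (SD, n = 4). HMOX1, which degrades haem, rose 1.52-fold (1.29 to 1.78, adjusted p = 0.00457). GCLM, a subunit of the enzyme that starts glutathione synthesis, rose 1.30-fold (1.202 to 1.41, adjusted p = 0.000788). Both HMOX1 and GCLM are also known targets of NFE2L2.

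S100A2, a calcium-binding protein of epithelial cells, had the smallest adjusted p of the list. It had 82.3, 75.4, 87.9 and 86.4 CPM in shScramble against 54.7, 45.04, 44.8 and 51.9 CPM in shIER5L cells (replicates 1 to 4), 0.592-fold (0.532 to 0.658, adjusted p = 1.86e-05 by edgeR's quasi-likelihood test). CCND1, which encodes cyclin D1, fell to 0.823-fold (0.768 to 0.882, adjusted p = 0.00273). LTO1 overlaps it on the other strand. KRT7, an epithelial keratin, fell to 0.538-fold (0.392 to 0.737, adjusted p = 0.0264) at only 21 to 62 counts per sample. Its call held only without shScramble replicate 1 or shIER5L replicate 2, and the adjusted p otherwise reached 0.0989. The other called genes of this list passed without any single sample. The median of the list was 0.03, and its called genes lay in both directions.

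All 29 listed kinases and factors upstream of these genes were tested, and 2 were called (6.90%, beside 3.93% of all tested genes). Both were lower, and 1.46% of all tested genes were called lower. MAPK3 encodes the kinase ERK1, which carries growth factor signals to FOS and EGR1. MAPK3 fell from 22.8 ± 2.18 to 17.5 ± 2.17 CPM (SD, n = 4), with an adjusted p of 0.0377 by edgeR's quasi-likelihood test. Its call was lost without any of shScramble replicates 2, 3 and 4 or shIER5L replicates 3 and 4 (0.0765 to 0.150). MAP2K4, an activator of JNK, had a log2 fold change of 0.22 (adjusted p = 0.0872). It passed without shScramble replicate 1 (0.0435) or shIER5L replicate 2 (0.0481). The median of the list was 0.01.

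**Figure D5:**
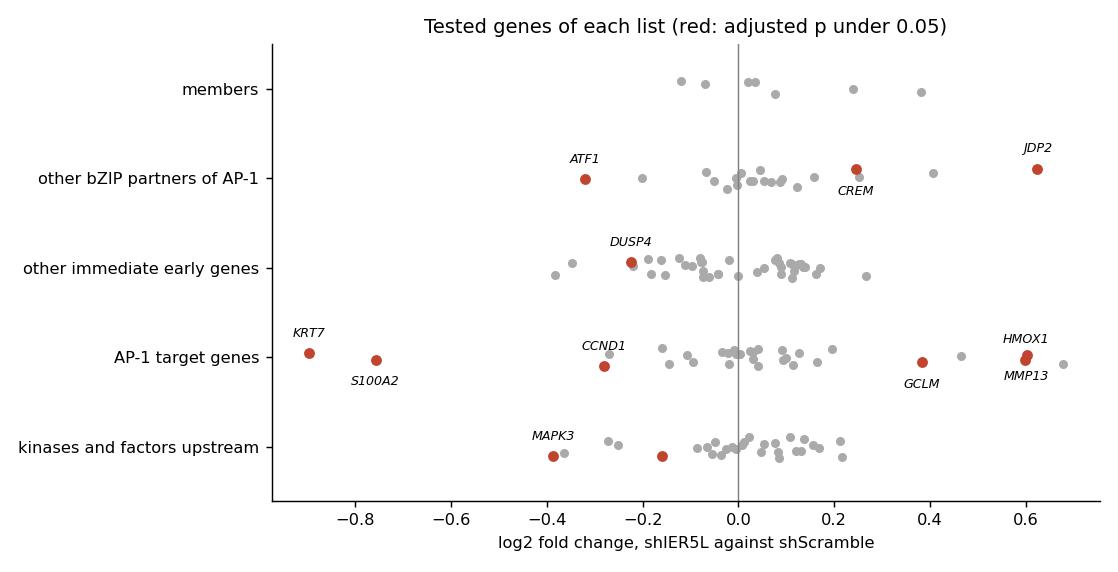
Log2 fold change of each tested gene of the 10 members and of the 4 related lists, with genes of adjusted p under 0.05 in red and those described in the text named. No member is red, and the red genes of the AP-1 targets lie on both sides of 0.

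The hairpin itself offers a further description of these genes. Short hairpins can lower transcripts that carry a short match in the 3′ UTR. The sh2 IER5L sequence is shown because 7-base stretches of it, CATCTCA and ACATCTC, within the capitals, were found to be common in 3′ UTRs of lowered genes by an earlier search of these same data, so the shares below are a description:
sh2 IER5L: gacgcgtccaACATCTCAaac
Of 12733 tested genes with a 3′ UTR, 27.1% held either stretch, against 62.2% of the 225 called lower and 26.9% of the 409 called higher. Of the 7 tested members only FOSL2 held one, and it held 5 sites in a 3′ UTR of 4869 bases. Its log2 fold change was 0.02. Among the members below the filter, FOSB and IER3 held 1 site each. The FOSL2 sites are shown with 10 bases on either side on hg38, and are printed because this gene held several and did not pass the test:
FOSL2, site chr2:28412723-28412729, plus strand: gtagacttggACATCTCtctggcttct
FOSL2, site chr2:28414578-28414584, plus strand: caggggtaatCATCTCAagtggtattt
FOSL2, site chr2:28415453-28415459, plus strand: gtcacacaagCATCTCAaagtcaaaag
FOSL2, site chr2:28415766-28415772, plus strand: agggatgaggACATCTCtttataaaag
FOSL2, site chr2:28416097-28416103, plus strand: taaaagccagCATCTCActatttattg

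Among the called genes of the other lists, ATF1, DUSP4 and MAPK3, all lower, held at least 1 of these stretches in the 3′ UTR, as did JDP2, CREM and GCLM, which were higher. KRT7, S100A2, CCND1, MMP13 and HMOX1 held none. The part of these sites in the changes was not tested.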

How the data were processed

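RNA was sequenced from PC3 cells, 4 shScramble and 4 shIER5L samples. The authors deposited raw counts in a single table, as reads per Ensembl gene on hg38 with no scaling. Per the submitters' processing notes and the study's methods, reads were aligned with STAR 2.7.5c, duplicates were removed (SAMtools 1.15), and reads were counted on exons with featureCounts 2.0.3, without a strand option and counting each read of a pair. The methods name a ribosomal RNA depletion kit, whereas the labels name a poly(A) mRNA kit. The table held 37 mitochondrial genes, all at 0 counts.

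Groups and replicate numbers came from the sample titles. Genes were filtered with filterByExpr, scaled by TMM and compared by the quasi-likelihood test of edgeR 4.0.16 (R 4.3.3). Condition was the sole term, and p-values were adjusted over all 16959 genes tested by the method of Benjamini and Hochberg. A gene was called at an adjusted p under 0.05. Standard errors were derived from the fold change and its F statistic. RPKM divided CPM by the counted exon length. GC content was that of the longest transcript (99.2% of tested genes), and its trend was smoothed per sample with a span of 0.3. Sequences were read with Python 3.11.15 from hg38 with GENCODE v44, from RefSeq promoters, and, for the hairpin, from the study's list of hairpins. The fit was tested on simulated data.

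Beside the members and IER5L, the genes named were, of each list, up to 6 called genes by absolute log2 fold change and, where fewer than 3 passed, those of smallest unadjusted p up to 3. IER2, MYC, EGR2, EGR3 and EGR4 were named after their values were seen. The members and lists were chosen with earlier results of these data known. Alternatives were scaling by RLE or by total counts, other filters on low counts, DESeq2 1.42.0, limma voom (limma 3.58.1), a replicate block and each sample left out. Removal of the GC trend was added after the data were seen. Some genes that the rule names are not reported here.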

Additional observations from a re-analysis of the deposited data

Results flagged for a closer look

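In 52 groups of 4 samples (each named gene in each condition), 3 had a sample far from the others by Dixon's test, which chance alone gives in about 1 of 20 groups. FOSB had 0.166 CPM in shIER5L replicate 3, where the other shIER5L samples had 0.0840 to 0.0914 CPM, a difference of 4 counts against 2. EGR1 had 0.134 CPM in shScramble replicate 4, where the other shScramble samples were at 0. CCND1 had 309 CPM in shScramble replicate 1, below the 335 to 340 CPM of the other shScramble samples and above the highest shIER5L sample at 289 CPM.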

How the results depend on the processing

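No member was called under any of the 16 alternatives, each sample left out included (range 0 to 0). Not every member could be called in each of them. FOS was not tested at a mean of at least 1 CPM and had no adjusted p with DESeq2. FOSB, EGR1 and IER3, below the main filter, are reported only without a filter on low counts. Leaving out samples turned the sign of 4 members: FOSL2 ran from -0.0703 to 0.0862, JUN from -0.0322 to 0.130, JUNB from -0.0855 to 0.249 and JUND from -0.210 to 0.0105 on the log2 scale. The other 3 tested members kept their sign. With 1 sample left out, called genes ran from 1 to 3 among bZIP partners (1 without shScramble replicate 2 or shIER5L replicate 3), 0 to 2 among other immediate early genes (0 without shScramble replicate 3, 2 without shScramble replicate 4 or shIER5L replicate 1), 5 to 7 among AP-1 targets, 0 to 2 among upstream genes (0 without shScramble replicate 2, 3 or 4, 1 without shIER5L replicate 1 or 3) and 305 to 756 in the whole table. The lowest count of the whole table was without shScramble replicate 3, with 341, 434 and 358 without shScramble replicates 2 and 4 and shIER5L replicate 3.

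Without a filter on low counts, 2 other immediate early genes were called, and with DESeq2, 4 upstream genes. With the GC trend removed, an alternative chosen after seeing the data, these were 5 other immediate early and 8 upstream genes, with 1384 calls in the whole table against 666. SPRY2, MCL1 and MAP2K4 then passed (adjusted p = 0.0132, 0.0358 and 0.0244 by edgeR's quasi-likelihood test). The causes were not tested.

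Same-numbered samples were not consistently alike. Their deviations correlated by -0.14, 0.203, -0.138 and 0.287 across genes, and only replicate 4 had its own number as the closest partner. As samples also differ in library trends, these correlations cannot decide whether the replicates were paired. With a replicate block, 0 members, 3 bZIP partners, 1 other immediate early gene, 7 AP-1 targets, 2 upstream genes and 655 genes in all were called. The adjusted p of IER5L was then 0.00148, against 0.0212 without the block (edgeR's quasi-likelihood test).

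Depth limits FOS, FOSB, EGR1 and IER3, at no more than 26 counts per sample.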
